A study of Mus musculus with 8 samples.

Results

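The alkaline phosphatase Alpl and the 7 genes Slc34a1, Slc34a2, Slc34a3, Slc20a1, Slc20a2, Pdzk1 and Xpr1, which together carry out and arrange the handling of inorganic phosphate at the cell surface, were followed in mouse kidney proximal tubule cells given an agonist of the bile acid receptor FXR. Members were taken by symbol: every non-control probe of the array whose transcript maps to one of the 8 symbols was used, which gave 13 probes of 39429 and 8 genes of the 20659 named on the array. The symbols themselves were chosen by pathway with the measured log2 fold changes of Alpl and Pdzk1 on these arrays known, so their levels and differences are given as a description, with no test. Of the 8 genes, 7 had a probe well above background on all 8 arrays, and Slc34a3 had none.

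The cells, from the reabsorbing epithelium of the renal cortex, were primary cultures of male C57/BJ mice, 6 weeks old, grown until the dish was covered. In serum-free medium, 4 samples received GW4064 at 1 uM for 24 h and 4 received an equal amount of DMSO, its solvent. GW4064 is a synthetic agonist of FXR (gene Nr1h4), the nuclear receptor for bile acids. The labels give no genetic change in either group. They leave unsaid if each sample was its own culture or animal, and a p-value here therefore sets a difference against the scatter of 4 samples that could be technical.

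Most filtered phosphate is taken back in the proximal tubule. Sodium-coupled carriers of the Slc34 family (type II) and the Slc20 family (type III) bring it into the cell. In the brush border Pdzk1 and related PDZ proteins hold type II carriers in place, and Xpr1 lets phosphate out of cells. Alpl encodes tissue-nonspecific alkaline phosphatase, a zinc enzyme held on the outer surface by a lipid anchor, which releases phosphate from pyrophosphate, pyridoxal phosphate and other phosphate esters, and which is known in bone for allowing mineral to form and in kidney as a brush border enzyme.

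Each level below is the log2 of a probe's processed signal minus the 75th percentile of its array, so a level of 0 is that percentile. The percentile was 1412 ± 207 with GW4064 and 1626 ± 187 with DMSO (intensity units, SD, n = 4 each), and the share of probes well above background was 61.4% to 65.7% per array. Levels of different probes do not rank genes by abundance. Each of the 2 slides held 2 GW4064 and 2 DMSO arrays, but on both slides the DMSO samples took the first 2 places, so place and treatment cannot be told apart. Known targets of the agonist moved with it. The bile salt transporter subunit Slc51a had a log2 fold change of 6.91 ± 0.16 and its partner Slc51b 3.40 ± 0.07. The bile acid binding protein Fabp6 was too dim to be well above background on 4 of 4 DMSO arrays. It was kept through the GW4064 arrays, and its difference is given as a bound, at least 61.4-fold higher. Nr1h4 itself fell by 0.45 ± 0.05 on the log2 scale, and the target Nr0b2 was too dim to test.

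Alpl was several-fold higher with GW4064. Its level was 3.65, 3.59, 3.72 and 3.73 on the GW4064 arrays, against 0.46, 0.53, 0.78 and 0.63 on the DMSO arrays. All 4 treated samples lay in a band narrower than that of the controls, and the lowest treated level stood 2.81 above the highest control level. The means were 3.67 ± 0.06 with GW4064 and 0.60 ± 0.14 with DMSO (SD, n = 4 each), a log2 fold change of 3.08 ± 0.07 (SE), or 8.43-fold. Alpl had the 11th highest log2 fold change of the 14476 genes measured, and its value was 3.13 on slide 1 and 3.02 on slide 2. In whole cultures, more RNA per cell and more cells of a type that carries the RNA cannot be told apart. A single probe, A_51_P494125, reports on the gene, so no other probe checks it.

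In mouse, Alpl can start from alternative first exons, each behind a promoter of its own. The gene lies on the minus strand of chromosome 4, and RefSeq lists a pair of starts for it in assembly GRCm38.p6. Both promoter windows, from 250 bases before to 50 bases after the start, are shown because Alpl is the member with the largest difference and the windows differ in composition. In each, capitals mark matches, on either strand, to the nuclear receptor half-site core AGGTCA, the GC box GGGCGG or the TATA box TATAAA.
Alpl, chr4:137766426-137766725, minus strand: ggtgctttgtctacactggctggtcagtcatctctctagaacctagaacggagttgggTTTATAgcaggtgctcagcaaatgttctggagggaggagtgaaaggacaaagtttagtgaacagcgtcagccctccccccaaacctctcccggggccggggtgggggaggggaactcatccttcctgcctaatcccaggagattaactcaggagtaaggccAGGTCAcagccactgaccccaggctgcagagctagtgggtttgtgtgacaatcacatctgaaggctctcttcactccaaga
Alpl, chr4:137796335-137796634, minus strand: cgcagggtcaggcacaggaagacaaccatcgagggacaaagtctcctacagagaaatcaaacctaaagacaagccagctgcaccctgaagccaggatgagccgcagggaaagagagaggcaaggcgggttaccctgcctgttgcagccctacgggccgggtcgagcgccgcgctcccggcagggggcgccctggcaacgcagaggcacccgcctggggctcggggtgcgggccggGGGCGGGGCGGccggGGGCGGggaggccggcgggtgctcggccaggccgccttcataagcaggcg
The first window had a GC content of 54.3%, with AGGTCA beginning at position -31 from the start and a TATA box, read on the other strand as TTTATA, at -192. The second had a GC content of 70% with overlapping or neighbouring GC boxes beginning at -15, -10 and 1, and no match to the other motifs. The arrays did not measure which start the RNA came from.

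Promoter entries were matched for 7 of the 8 members, 10 windows in all. The core AGGTCA was in 6 of these 10 windows and in 16.3% of all 32851 mouse promoter windows of this length, searched on both strands. The core followed, after 1 free base, by its own inverted copy, the classic element that FXR can bind, was in 0 of the 10 and in 0.00913% of all windows. The GC box was in 5 of the 10 and 35.7% of all, and the TATA box in 3 of the 10 and 13.6% of all. A match is a run of letters and not a measured binding site, and no match says only that these letters are not in this window.

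**Figure D1:**
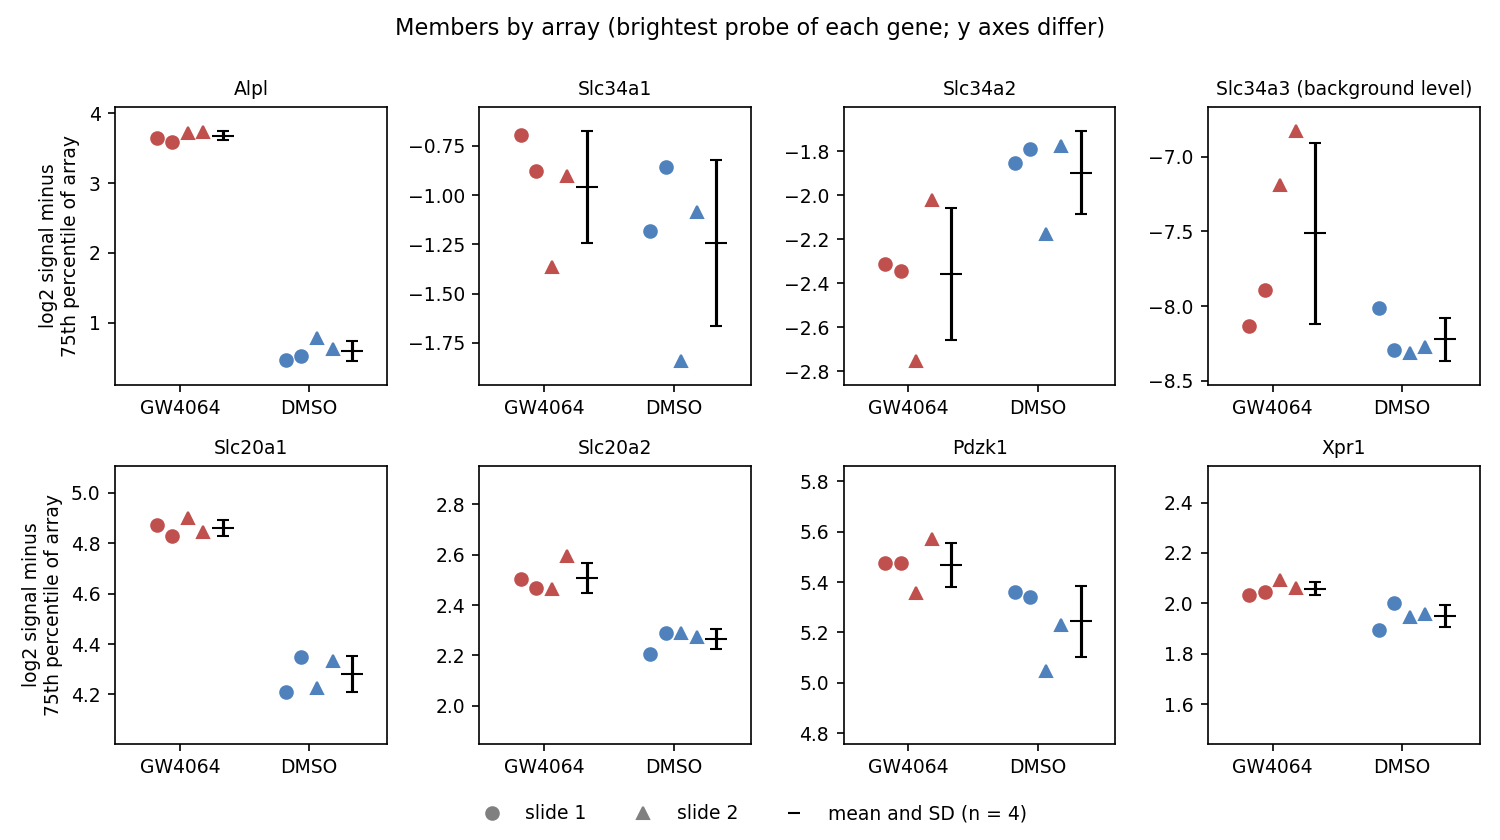
Level of the brightest probe of each member on each array (log2 signal minus the array's 75th percentile), with GW4064 on the left and DMSO on the right of each panel, circles for slide 1, triangles for slide 2 and black bars for the mean and SD of each group (y axes differ). Alpl stands near 3.67 on the GW4064 arrays and near 0.60 on the DMSO arrays, while the 4 tested carriers differ by less than 1 log2 unit.

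The type III carriers were both higher with GW4064. Slc20a1 encodes PiT-1 and Slc20a2 encodes PiT-2, sodium-phosphate cotransporters that most tissues make. Slc20a1 had levels of 4.87, 4.83, 4.90 and 4.84 with GW4064, against 4.21, 4.35, 4.23 and 4.33 with DMSO. The groups did not overlap, and the spread within each was small beside the difference between them. Its log2 fold change was 0.58 ± 0.04 (SE), or 1.5-fold, with an adjusted p of 7.63e-05 in limma over all genes and a 95% interval of 0.48 to 0.68. Within slides it was 0.57 on slide 1 and 0.59 on slide 2.

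A dimmer Slc20a1 probe, assigned to another transcript of the gene (NM_001159593, against NM_015747 for the first), gave nearly the same difference. Its levels were -3.47, -3.49, -3.44 and -3.52 with GW4064, against -4.14, -3.89, -4.09 and -4.08 with DMSO, a log2 fold change of 0.57 ± 0.06. Both probes therefore separated the groups. The promoter window of the upstream start of Slc20a1 is shown because this gene is the carrier with the largest change and its window holds a match to each of the AGGTCA, GC box and TATA box motifs, in capitals, on the plus strand of GRCm38.p6.
Slc20a1, chr2:129198523-129198822, plus strand: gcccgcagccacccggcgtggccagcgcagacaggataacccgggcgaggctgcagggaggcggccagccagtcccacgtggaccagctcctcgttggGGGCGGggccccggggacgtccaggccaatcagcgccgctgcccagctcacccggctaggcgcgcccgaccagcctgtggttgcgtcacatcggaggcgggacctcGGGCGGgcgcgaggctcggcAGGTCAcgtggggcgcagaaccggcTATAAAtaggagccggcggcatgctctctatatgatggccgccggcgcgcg
AGGTCA begins at -26, GC boxes at -152 and -46 and TATAAA at -1, and the GC content is 73%. RefSeq lists a further start of the gene, at whose window AGGTCA begins at -75 on the other strand.

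Slc20a2 changed less. Its levels were 2.50, 2.47, 2.46 and 2.60 with GW4064, against 2.21, 2.29, 2.29 and 2.27 with DMSO. Every treated sample lay above every control. The log2 fold change was 0.24 ± 0.04, or 1.18-fold, with an adjusted p of 0.00556 in limma and a 95% interval of 0.14 to 0.34. It was 0.24 on slide 1 and 0.25 on slide 2. A dimmer probe of the same transcript gave 0.22, 0.14, 0.13 and 0.22 with GW4064, against -0.05, 0.16, 0.03 and 0.05 with DMSO. On that probe the groups overlapped, and its log2 fold change of 0.13 ± 0.05 had an adjusted p of 0.147 in limma over all probes.

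The type II carriers gave no value past the threshold. Slc34a1 encodes NaPi-IIa, the main brush border phosphate carrier of the mouse proximal tubule. Its levels were -0.70, -0.88, -1.36 and -0.90 with GW4064, against -1.18, -0.86, -1.84 and -1.09 with DMSO. The arrays numbered 3 were lowest in both groups, and the groups overlapped. The log2 fold change was 0.28 ± 0.22 with an adjusted p of 0.404 in limma. Its 95% interval, from -0.22 to 0.78, is the widest of the tested members and does not exclude a difference as large as that of Slc20a1. The value was 0.23 on slide 1 and 0.33 on slide 2. It was 0.08 when DMSO replicate 3 was left out and 0.42 when GW4064 replicate 3 was left out, so single arrays set its size. The second probe of Slc34a1 gave 0.33 ± 0.21 with overlapping groups.

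Slc34a2, which encodes NaPi-IIb, the phosphate carrier known from intestine and lung, was the only kept member whose difference was negative. Its levels were -2.31, -2.34, -2.75 and -2.02 with GW4064, against -1.85, -1.79, -2.18 and -1.77 with DMSO. The groups overlapped, since the lowest DMSO array was below the highest GW4064 array. The log2 fold change was -0.46 ± 0.15, with an adjusted p of 0.0708 in limma and a 95% interval of -0.81 to -0.11. It was -0.51 on slide 1 and -0.41 on slide 2. The value crossed the threshold of 0.05 when GW4064 replicate 4 was left out (-0.57, adjusted p 0.0307) and when DMSO replicate 3 was left out (-0.55, adjusted p 0.0433). It also crossed it in limma with array weights (-0.49, adjusted p 0.0285), on slide 1 alone (-0.51, adjusted p 0.0251) and with the replicate number as a block (-0.46, adjusted p 0.0126). In 17 of 23 alternative settings it did not cross it. Among those were slide 2 alone (-0.41, adjusted p 0.525 in limma) and normexp background correction (-0.70, adjusted p 0.473 in limma).

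Slc34a3 encodes NaPi-IIc, a brush border carrier that works beside NaPi-IIa. Its probe was well above background on 0 of 8 arrays, with levels between -8.14 and -6.83 on the GW4064 arrays and between -8.31 and -8.01 on the DMSO arrays. These are levels of background, and no fold is given.

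Pdzk1 encodes a scaffold with PDZ domains that binds the tail of NaPi-IIa and of other brush border transporters. Its levels were 5.48, 5.47, 5.36 and 5.57 with GW4064, against 5.36, 5.34, 5.05 and 5.23 with DMSO. The groups met, because GW4064 replicate 3 was no higher than DMSO replicate 1. The log2 fold change was 0.23 ± 0.08, and it was 0.13 on slide 1 and 0.32 on slide 2. The second probe, at 3.68, 3.57, 3.48 and 3.60 with GW4064 and 3.37, 3.41, 3.08 and 3.36 with DMSO, separated the groups with a log2 fold change of 0.28 ± 0.08.

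Xpr1 is the phosphate exporter, a protein whose SPX domain binds inositol pyrophosphates. Its levels were 2.03, 2.05, 2.09 and 2.06 with GW4064, against 1.89, 2.00, 1.95 and 1.96 with DMSO. The groups did not overlap, although they stood only 0.031 apart. The log2 fold change was 0.11 ± 0.04, with an adjusted p of 0.0711 in limma and a 95% interval of 0.02 to 0.19. It was 0.09 on slide 1 and 0.13 on slide 2. The dimmer probe gave 0.17 ± 0.08, and there the groups overlapped.

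**Figure D2:**
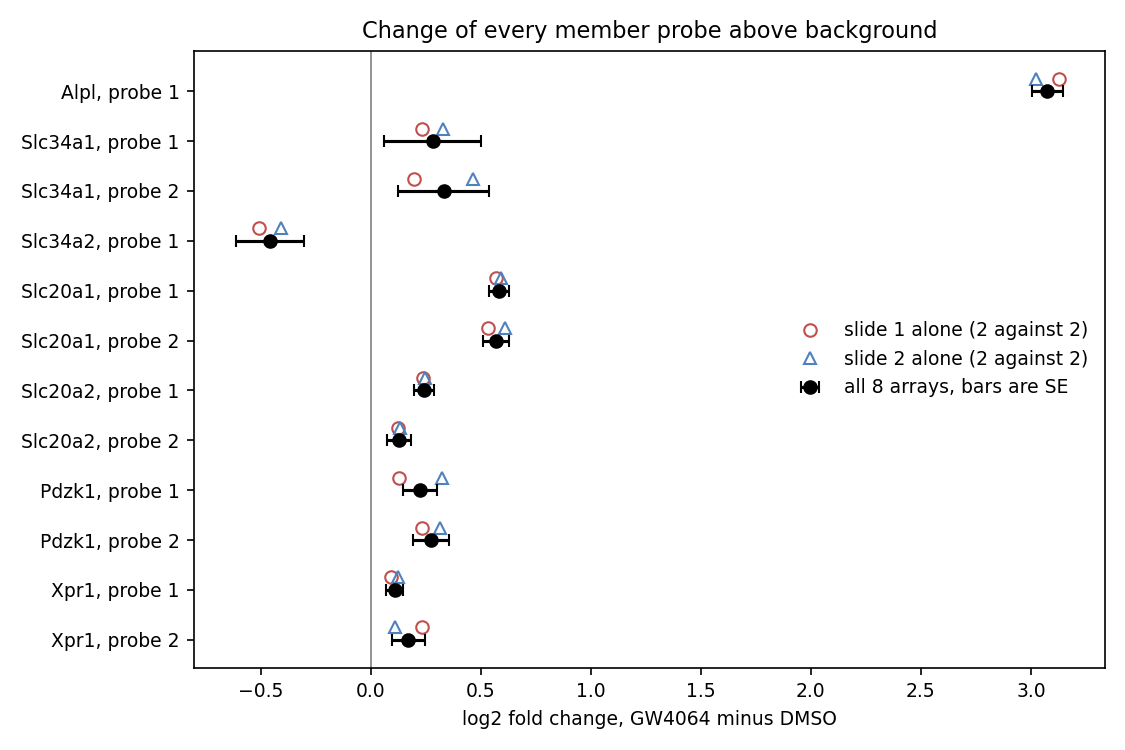
Log2 fold change (GW4064 minus DMSO) of each of the 12 kept probes of the members, with standard errors, over all 8 arrays (black) and on slide 1 (circles) and slide 2 (triangles) alone. The 5 members with 2 probes have both probes on the same side of 0, and Slc34a2 is the only gene on the negative side.

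With Alpl and Pdzk1 set aside, 2 of the 5 other kept members (Slc20a1 and Slc20a2) were past an adjusted p of 0.05 and higher with GW4064, and 0 were lower, where 20.8% of all 14476 genes were past it (11.8% higher and 8.95% lower). Groups without overlap were seen for 4 of the 7 members, against 26.2% of all genes. By probe, 6 of 12 did not overlap, against 23.1% of 24723 probes in all. The members were listed with results known, so nothing is read from these counts. The median log2 fold change was 0.24 over the kept members and 0.015 over all genes. On each slide alone 6 of the 7 were higher and Slc34a2 was lower.

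**Figure D3:**
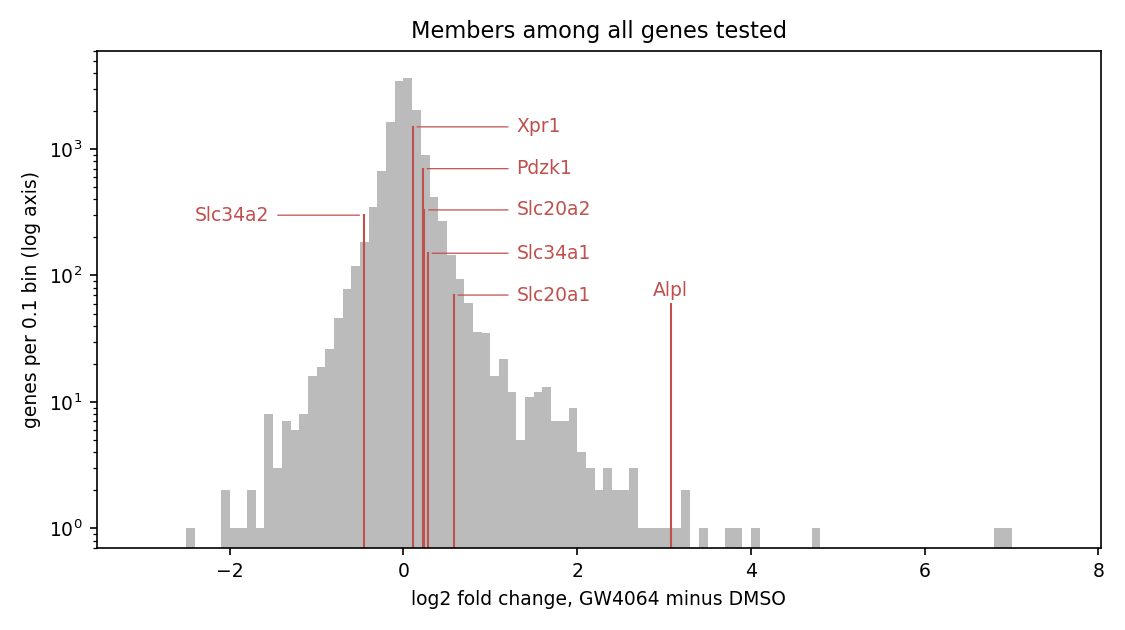
Histogram of the log2 fold change (GW4064 minus DMSO) of the 14476 genes measured, with the number of genes per bin of 0.1 on a log axis and red lines at the 7 kept members, whose heights carry no value. Alpl stands at 3.08 among a few genes of the right tail, Slc20a1 at 0.58 on the right slope, and the other members lie closer to 0.

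Carriers of the same family were also set against each other within each array. These pairs were chosen after their values were seen, so the differences are a description with no test. The level of Slc20a1 minus that of Slc20a2 was 2.37, 2.36, 2.44 and 2.25 with GW4064, against 2.00, 2.06, 1.94 and 2.06 with DMSO. Its mean was 0.34 higher in the GW4064 arrays. The level of Slc34a1 minus that of Slc34a2 was 1.62, 1.47, 1.39 and 1.12 with GW4064, against 0.67, 0.93, 0.34 and 0.69 with DMSO, and its mean was 0.74 higher in the GW4064 arrays. After this subtraction GW4064 replicate 3 was no longer the lowest of its group, while DMSO replicate 3 still was.

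That dip was shared with markers of the cell type. In both groups replicate 3 had the lowest level for Slc34a1, Slc34a2 and Pdzk1, that is for 3 of 7 members and 5 of their 12 probes, and for 17 of 23 proximal tubule markers (73.9%), against 10.2% of all genes. Alpl and Slc20a1 did not share it. With both arrays numbered 3 left out, the log2 fold changes were 3.12 ± 0.06 for Alpl, 0.55 ± 0.05 for Slc20a1, 0.26 ± 0.05 for Slc20a2 and 0.22 ± 0.10 for Slc34a1. Slc34a2 was then at -0.42 ± 0.09 with an adjusted p of 0.0312 in limma, past the threshold.

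**Figure D4:**
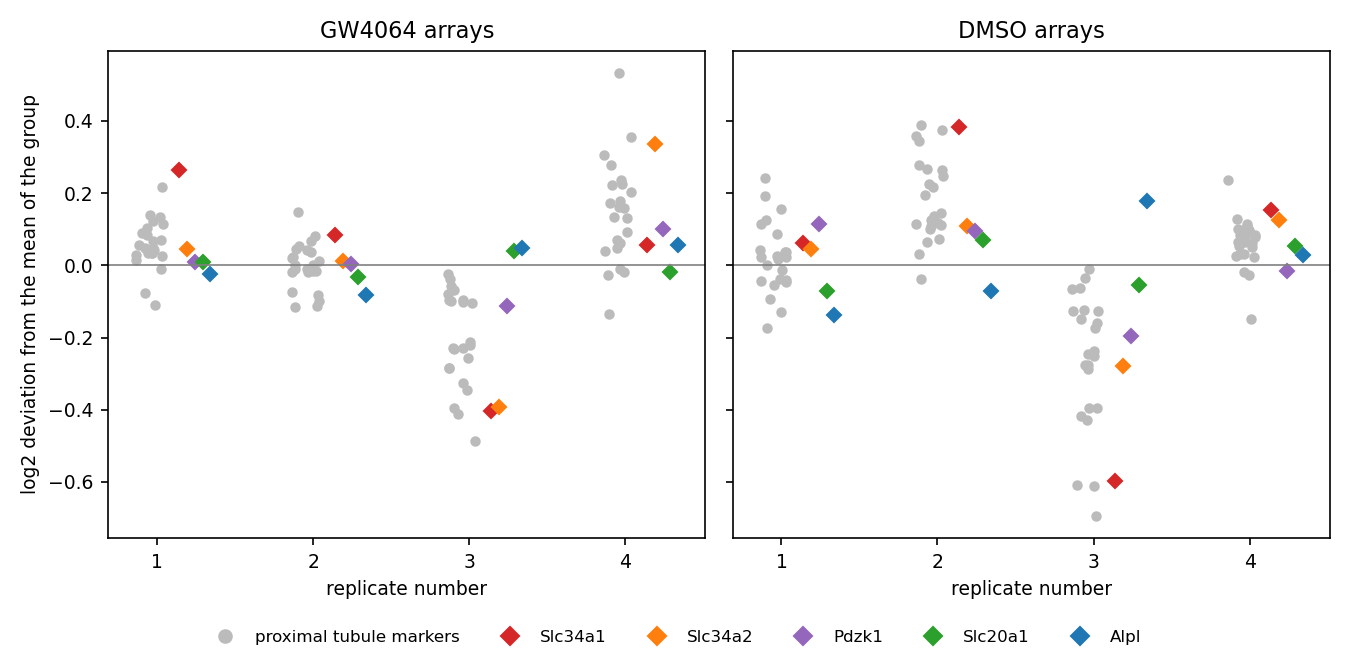
Deviation of each array from the mean of its own group (log2), by replicate number, for 23 proximal tubule markers (grey) and 5 members (diamonds), with GW4064 on the left and DMSO on the right. In both groups replicate 3 lies below 0 for the markers, Slc34a1, Slc34a2 and Pdzk1, and above 0 for Alpl.

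Proximal tubule markers also differed between the groups. Of 23 kept, 16 were higher with GW4064 and 3 lower, where 11.8% of all genes were higher and 8.95% lower. Among these markers were the sulfate carrier Slc13a1 at 2.52 ± 0.07, the creatine pathway enzyme Gatm at 1.95 ± 0.10 and the androgen-regulated Kap, which has the brightest probe of the list, at -0.68 ± 0.11. The mean level of the list ran from 1.37 to 1.73 on the GW4064 arrays and from 0.58 to 1.03 on the DMSO arrays. The part of this shift in the differences of Alpl and of the carriers was not tested.

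Because Alpl is also an enzyme of bone-forming cells and neutrophils, markers of those and other cells were set beside it. For each list below, the share over all genes was 20.8% past the threshold, 11.8% higher and 8.95% lower. Of the osteoblast and mineralisation genes 6 of the 11 on the array were kept, and 0 of them were past the threshold. Sp7, Ibsp, Dmp1 and Dlx5 were not well above background on any array, Runx2 was at -0.05 ± 0.20 and Spp1, which tubule cells also make, at 0.26 ± 0.10. Their mean level overlapped, from -1.34 to -1.18 with GW4064 and from -1.35 to -1.15 with DMSO. The neutrophil genes S100a8 and S100a9 were not well above background on any array. Leukocyte markers as a list had 5 of 13 higher and 0 lower, with Csf1r at 0.75 and C1qb at 0.27. Their log2 fold changes ran from -0.90 to 0.75, and their mean level from -2.36 to -2.18 with GW4064 and from -2.64 to -2.4 with DMSO. Endothelial markers had 4 of 11 higher and 0 lower, with log2 fold changes from -0.68 to 0.99 and a mean level from -2.31 to -2.19 with GW4064 and from -2.56 to -2.33 with DMSO. Fibroblast and pericyte markers had 4 of 12 higher and 1 lower, with a mean level from -0.23 to -0.11 with GW4064 and from -0.42 to -0.15 with DMSO, and other nephron segments had 1 of 10 higher and 2 lower. The part of these cells in the Alpl difference was not tested.

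Around the members, 90 of 102 genes of the wider phosphate, pyrophosphate and alkaline phosphatase pathways were kept, of which 28 were higher, 8 lower and 54 not past the threshold. That is 40% past it, against 20.8% of all genes tested (11.8% higher and 8.95% lower). With only genes well above background on all 8 arrays, 27 were higher and 7 lower. By list the share past the threshold ran from 13.3% for the zinc and lipid anchor genes, below that of all genes, to 75% for the pyrophosphate and nucleotide genes, and the lists were drawn up with results known. The median log2 fold change of the 90 genes was 0.09.

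Among hormones and receptors that set phosphate and vitamin D balance, 5 of 16 kept genes were higher and 0 lower, with a median of 0.11. Cyp24a1, the enzyme that inactivates vitamin D hormone, averaged 2.14 ± 0.14 with GW4064 and 0.31 ± 0.10 with DMSO (SD, n = 4 each), a log2 fold change of 1.84 ± 0.08. The secreted glycoprotein Stc2 had 0.84 ± 0.08 and the FGF receptor Fgfr4 0.58 ± 0.04. The vitamin D receptor Vdr had 0.28 ± 0.06 with an adjusted p of 0.0101 in limma. The parathyroid hormone receptor Pth1r, named after its value was seen, was the fifth at 0.14 ± 0.04. Kl, the FGF23 co-receptor klotho, was at -0.10 ± 0.13 and Cyp27b1, which makes vitamin D hormone, at 0.41 with an adjusted p of 0.0664 in limma, neither past the threshold and both named after their values were seen.

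Scaffold and linker genes of the apical membrane had 3 of 9 higher and 0 lower. Shank2, a scaffold that binds NaPi-IIa, was low but well above background and had the largest difference of the list, 1.39 ± 0.07. The membrane linker ezrin, Ezr, had 0.25 ± 0.04, and Slc9a3r1, which encodes the PDZ scaffold NHERF1, had 0.18 ± 0.05 with an adjusted p of 0.0471 in limma and overlapping groups. The related linker moesin, Msn, was at -0.08 ± 0.05 and was not past the threshold.

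Other membrane proteins that bind Pdzk1 had 4 of 9 kept genes higher and 1 lower, with a median of 0.37. That median is the value of the dim gene Slc22a12, named after its value was seen. Its probe was well above background on only 3 GW4064 arrays and 1 DMSO array. Slc17a1, a brush border carrier of organic anions first described with phosphate transport, averaged 3.04 ± 0.13 with GW4064 and 1.86 ± 0.29 with DMSO, a log2 fold change of 1.18 ± 0.14. The anion exchanger Slc26a6 had 0.63 ± 0.05, the efflux pump Abcc2 0.60 ± 0.07 and the HDL receptor Scarb1 0.41 ± 0.05. The chloride channel Cftr fell by 0.59 ± 0.10 on the log2 scale and is named after its value was seen.

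Further carriers with phosphate in their name or substrates had 5 of 10 kept genes higher and 0 lower, with a median of 0.25. The dim gene Slc37a2, named after its value was seen, enters that median. It was well above background on 4 GW4064 and 2 DMSO arrays and was kept through the GW4064 arrays. Slc17a4 averaged 0.33 ± 0.08 with GW4064 and -2.06 ± 0.09 with DMSO, a log2 fold change of 2.39 ± 0.06. Its relative Slc17a3, like it an organic anion carrier, had 1.12 ± 0.08. The mitochondrial ATP-magnesium/phosphate carrier Slc25a25 had 0.47 ± 0.05 and the endoplasmic reticulum glucose-6-phosphate exchanger Slc37a4 had 0.46 ± 0.08. Slc25a24, named after its value was seen, was the fifth at 0.14 ± 0.04.

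Genes that make or remove the inositol pyrophosphates sensed by Xpr1 moved both ways, 2 of 13 higher and 3 lower, or 2 lower without the dim gene Ip6k3. The kinase Ipmk, early in the pathway, fell by 0.41 ± 0.04, and the pyrophosphate synthase Ppip5k1 by 0.42 ± 0.07 on the log2 scale. The probe of Ip6k3 was well above background on 1 of the GW4064 arrays and 4 of the DMSO arrays and was kept through the DMSO arrays, so its levels of -7.01 ± 0.86 with GW4064 and -5.30 ± 0.19 with DMSO (SD, n = 4 each) are given with no fold. Itpk1 had 0.26 ± 0.04, and Ppip5k2, named after its value was seen, 0.17 ± 0.05.

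Genes of pyrophosphate and extracellular nucleotides, from which the substrates of alkaline phosphatase come, had 3 of 8 kept genes higher and 3 lower. Enpp2, a secreted lysophospholipase D of a family that also makes pyrophosphate, averaged 0.67 ± 0.13 with GW4064 and 1.77 ± 0.22 with DMSO, a log2 fold change of -1.10 ± 0.11. The ecto-5′-nucleotidase Nt5e fell by 0.40 ± 0.05 on the log2 scale. Abcc6, which lets ATP out of cells, had 0.81 ± 0.09 and the endoplasmic reticulum nucleotidase Entpd5 0.32 ± 0.04. The remaining pair, named after their values were seen, were the pyrophosphate exporter gene Ank at 0.38 ± 0.08 and Entpd2 at -0.35 ± 0.06.

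Of other alkaline and acid phosphatases, 3 of 6 kept genes were higher and 0 lower, or 2 of 5 without the dim gene Alppl2. Alppl2, another mouse alkaline phosphatase gene, was well above background on 4 GW4064 and 2 DMSO arrays and was kept through the GW4064 arrays. Its levels of -4.82 ± 0.24 with GW4064 and -5.70 ± 0.11 with DMSO (SD, n = 4 each) are given with no fold. Acp5, the tartrate-resistant acid phosphatase of osteoclasts and macrophages, had 0.46 ± 0.06 and Acpp 0.41 ± 0.10. Acp2 at 0.14 ± 0.05, Acp1 at 0.12 ± 0.05 and Phospho2 at 0.02 ± 0.05 were not past the threshold. The intestinal genes Alpi and Akp3 and the mineralisation phosphatase Phospho1 were not well above background on any array.

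Genes that load zinc into the enzyme or build and remodel its lipid anchor had 1 of 15 kept genes higher and 1 lower, with a median of -0.001. Piga, which acts in the first step of anchor synthesis, fell by 0.33 ± 0.06 on the log2 scale, and the remodelling gene Pgap3 had 0.28 ± 0.06. The transamidase subunits Gpaa1 at 0.15 ± 0.05 and Pigu at 0.13 ± 0.04 each had an adjusted p of 0.0708 in limma. Among genes of vitamin B6, whose phosphate form Alpl dephosphorylates outside cells, pyridoxal kinase, Pdxk, averaged 5.37 ± 0.05 with GW4064 and 4.52 ± 0.03 with DMSO, a log2 fold change of 0.85 ± 0.04. The phosphatase Pdxp at -0.13 ± 0.04 and the binding protein Plpbp at 0.16 ± 0.06 were not past the threshold.

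**Figure D5:**
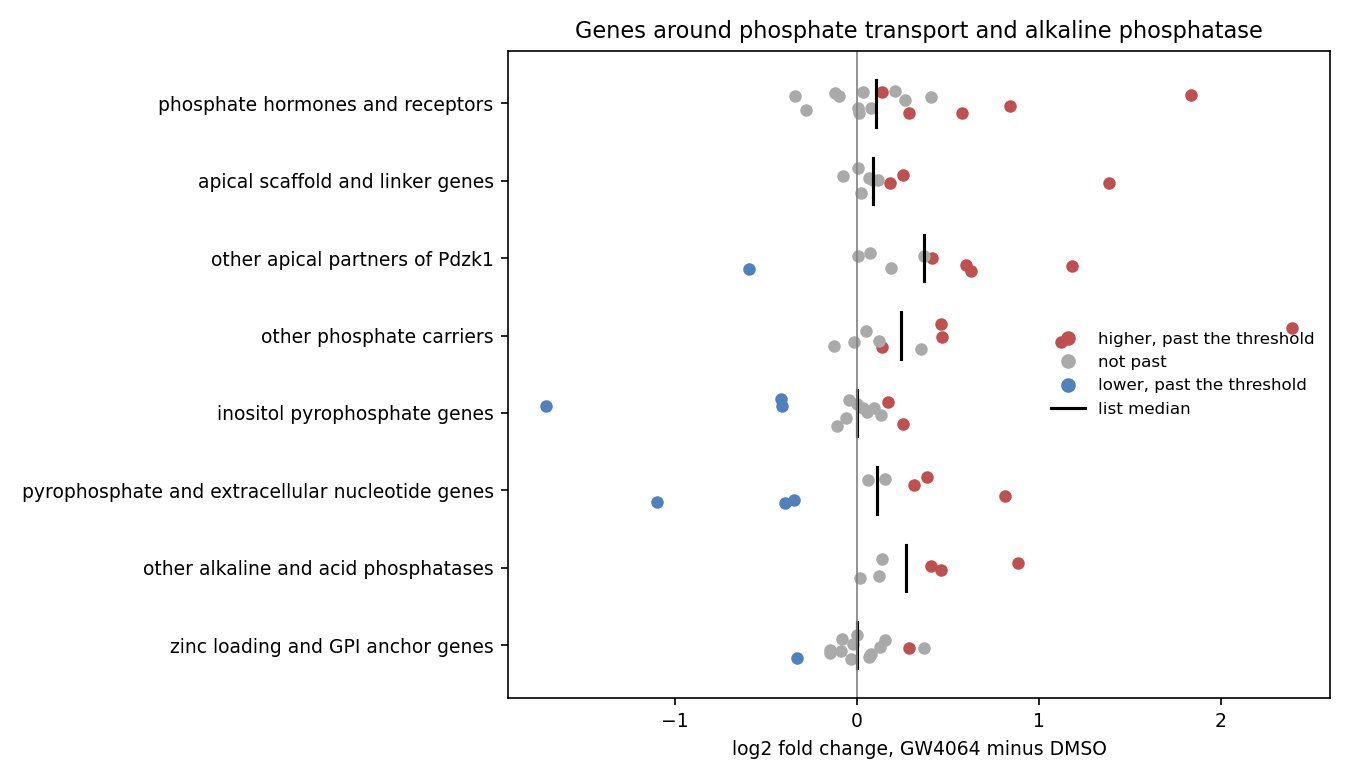
Log2 fold change (GW4064 minus DMSO) of each kept gene of 8 pathway lists, 1 row a list, with genes past an adjusted p of 0.05 in red (higher) or blue (lower) and a black line at the list median. The spread is widest in the phosphate carriers, where Slc17a4 reaches 2.39, and narrow in the zinc and lipid anchor genes. Ip6k3 (blue) and Alppl2 (red) are plotted too, although they are dim genes for which the text gives no fold.

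The genes whose values over the 8 arrays were nearest to those of Alpl were found by centring each gene on its DMSO mean and taking the root mean square of the difference from Alpl. This distance is not scaled, so it mostly picks genes with a log2 fold change near that of Alpl. The large folds below follow from that choice. The intermediate filament gene Synm was nearest at 0.177 log2 units, with a 9.83-fold difference. Complement component C3 followed at 0.213 with 7.09-fold, Slc51b at 0.292 with 10.6-fold, the chemerin gene Rarres2 at 0.302 with 8.94-fold and Osgin1 at 0.340 with 6.21-fold. All 5 were well above background on every array, as Alpl was. Within the DMSO group they did not all vary as Alpl did. Centred on the DMSO mean, DMSO replicate 3 was at 0.18 for Alpl, 0.22 for Synm and 0.31 for C3. It was at -0.004 for Osgin1, -0.20 for Slc51b and -0.43 for Rarres2.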

How the data were processed

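RNA of 8 samples, 4 GW4064 and 4 DMSO, was measured on one-colour Agilent arrays. Per the file headers, Feature Extraction 10.7.3.1 read each spot's intensity and subtracted its background. Agilent Feature Extraction 10.7 and limma are the tools in the submitters' processing notes. The authors also deposited a log2 table of the whole series, whose scale and centring are not stated. Each of its columns had a median of 6.598 and correlated best with its own array, so it served as an alternative setting.

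Each array had 44397 spots, of which 1377 were controls and 98 to 174 were marked as outliers; both were left out. No spot of a member was saturated. Signals were scaled by subtracting the array's 75th percentile on the log2 scale, and spots of a probe were averaged. A probe was kept if well above background on at least 4 of 8 arrays, and 85 probes with no usable spot on some array were dropped, which left 24723 probes. Transcript identifiers, versions removed, were looked up in RefSeq's GRCm38.p6 gene table for their symbols; 27234 of 39429 probes (69.1%) matched. The file headers name build mm9, so the only coordinates printed are those of RefSeq promoters on GRCm38.p6. The brightest kept probe stood for a gene, which left 14476 genes.

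The comparison used limma 3.58.1 (R 4.3.3), lmFit then eBayes, without covariates, and Benjamini-Hochberg adjustment over all genes at a threshold of 0.05. The error of a log2 fold change is its standard error (n = 4 per group). For a gene too dim on every array of a group, a fold is a bound against the lowest signal well above background. The number of arrays limits the precision. The members, lists and tests were chosen with earlier results of these data known. Named were all members, up to 4 genes of each pathway list by smallest p (all of lists of 6 or fewer), 3 of each marker list and the 5 genes nearest to Alpl. The value of 1 gene that this rule takes is not reported here. Alternatives covered background correction, normalization, filters, probe choice, slide and replicate blocks, array weights, the deposited table and leaving out arrays. The files hold median spot signals, and normexp, planned on means, was run on those.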

Additional observations from a re-analysis of the deposited data

Results flagged for a closer look

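In 7 of 178 groups of 4 arrays (3.93%), taken over the members' probes, the named genes and the list means, the highest or lowest array stood far from the other 3 by Dixon's test. Chance flags about 1 group in 20 by that test, so these are given as values. For Slc34a3, DMSO replicate 1 was high at -8.01, at background level. For the second Pdzk1 probe, DMSO replicate 3 was low at 3.08. For Cyp24a1, DMSO replicate 3 was low at 0.15, and for the mean of the phosphate hormone and receptor list it was low at 0.091. For Enpp2, GW4064 replicate 3 was low at 0.48. For the smooth muscle gene Tagln, replicate 3 was high in both groups, at 5.64 with GW4064 and 5.11 with DMSO. Of these 7, 6 concern an array numbered 3, on which proximal tubule markers were also lowest.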

How the results depend on the processing

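Over 23 alternatives no value of a member changed sign. Alpl stayed between 3.02 and 3.13, Pdzk1 kept its direction in all 23, and Slc34a1 and Xpr1 also kept their side of the threshold, but Slc34a1 ran from 0.02 with normexp to 0.42 without GW4064 replicate 3. Leaving out 1 array at a time gave 1187 to 1636 genes higher and 889 to 1210 lower. Of the pathway genes, 22 to 30 were then higher and 8 to 10 lower. With Alpl and Pdzk1 set aside, Slc20a1 and Slc20a2 were higher and past the threshold throughout. From 0 to 1 members were lower, with Slc34a2 between -0.57 and -0.33. Slc34a2 passed the threshold, as 1 member lower, with a replicate block (-0.46, adjusted p 0.0126 in limma), with array weights (-0.49), on slide 1 alone (-0.51) and with both arrays numbered 3 left out (-0.42), the last chosen after seeing the data. In 17 of the 23 alternatives Slc34a2 did not pass it, with an adjusted p in limma as high as 0.525 on slide 2 alone. Deviations from the group means correlated across genes at r of -0.13, -0.03, 0.19 and -0.02 for arrays of the same number. Arrays of different numbers gave r from -0.20 to 0.20. The labels do not say if the numbers pair the samples, and these values, taken over all genes, cannot decide it. The block changed no call of the other tested members. With fewer arrays, slide 1 alone called 607 genes higher and 359 lower, 18 pathway genes higher, and left Slc20a2 at 0.24 with an adjusted p of 0.101 in limma. Slide 2 alone called 168 higher and 52 lower, and 7 pathway genes higher and 0 lower. There Slc20a1 was at 0.59 (adjusted p 0.0538 in limma) and Slc20a2 at 0.25 (0.234), neither past the threshold. Normexp called 80 genes higher and 39 lower, and 5 pathway genes higher and 0 lower. With it Slc20a1 was at 0.76 (adjusted p 0.157 in limma) and Slc20a2 at 0.34 (0.472), neither past the threshold. On DMSO replicate 3, 6 spots lay far below a marked local background, and their part in the normexp fit was not tested alone. A second normexp run, chosen after seeing the data, replaced every marked local background on every array by the array's median. It called 1305 genes higher and 891 lower, 23 pathway genes higher and 6 lower, and Slc20a1 and Slc20a2 higher. Signal over background limits Slc34a3, Ip6k3, Alppl2, Slc22a12 and Slc37a2.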
